A study of Mus musculus with 16 samples.

Results

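The genes described here are NFE2L2, which encodes the transcription factor NRF2, and 9 genes known as its targets in the defense against oxidants, namely HMOX1, NQO1, GCLC, GCLM, TXNRD1, SRXN1, SLC7A11, GSR and PRDX1. They were chosen by name, and the rows whose symbol equals one of the 10 names were taken from a table of 18132 genes. Of the 10, 9 were found there, and GSR was not analysed here. In GRCm38.p6 the genes lie on chromosomes 2 (NFE2L2 and SRXN1), 3 (SLC7A11 and GCLM), 4 (PRDX1), 8 (HMOX1 and NQO1), 9 (GCLC) and 10 (TXNRD1). RNA was taken from primary fibroblasts, grown out of the inguinal mammary glands of female 129S6 mice aged 8 to 10 weeks. The mice were MEKK1+/+ or MEKK1-/-, where MEKK1 is a kinase of stress signaling encoded by MAP3K1. Cells of each genotype were cultured in DMEM with fetal bovine serum and left untreated, or were exposed for 8 h to breast tumor-conditioned medium (TCM), growth medium harvested from cultures of MDA-MB231, a human line of breast cancer origin. Each of the 4 groups held 4 arrays of the Illumina Mouse 8 type, 16 in all. There were fewer mice than arrays in a group and no source ties a mouse to an array, so p-values measure the spread between cultures, some of which share a mouse.

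In resting cells NRF2 is held by KEAP1, an adaptor that hands it to a ubiquitin ligase for degradation. Oxidants and electrophiles modify KEAP1, and NRF2 then accumulates, pairs with a small MAF protein and binds antioxidant response elements in the promoters of its targets. Because this control acts largely on the NRF2 protein, the RNA of the targets is the usual readout of the pathway on an expression array. In tumor stroma the pathway is known for its role in glutathione production and in the tolerance of oxidative stress.

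The promoters of 7 of the 10 genes were in the RefSeq promoter table of the mouse build GRCm38.p6, with 9 windows in all because TXNRD1 had more than 1. HMOX1, GCLC and GSR had no entry. The 250 bases before each transcript start were searched on both strands for TGACNNNGC, the core of the antioxidant response element, and for TGANTCA, the site of AP-1, the factor family downstream of the JNK pathway in which MEKK1 acts. Of all 32851 windows, 10.2% held TGACNNNGC and 6.75% held TGANTCA. TGACNNNGC was found in GCLM, in 1 window of TXNRD1, in PRDX1 and in NFE2L2, and TGANTCA in SRXN1 and PRDX1. The windows of SRXN1, PRDX1 and NFE2L2 are shown because NFE2L2 was the one member called, and because with TCM the arrays of the 2 genotypes did not overlap for SRXN1 and PRDX1 after quantile normalization, without a call. They run 5' to 3' on the strand of the gene, and capitals mark the motifs.
SRXN1, chr2:152105274-152105523, plus strand: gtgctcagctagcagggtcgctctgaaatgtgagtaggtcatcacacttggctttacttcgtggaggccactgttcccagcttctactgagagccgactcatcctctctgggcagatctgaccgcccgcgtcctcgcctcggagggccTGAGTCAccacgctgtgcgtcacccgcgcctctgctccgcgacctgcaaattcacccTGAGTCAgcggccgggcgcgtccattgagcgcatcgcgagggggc
PRDX1, chr4:116685349-116685598, plus strand: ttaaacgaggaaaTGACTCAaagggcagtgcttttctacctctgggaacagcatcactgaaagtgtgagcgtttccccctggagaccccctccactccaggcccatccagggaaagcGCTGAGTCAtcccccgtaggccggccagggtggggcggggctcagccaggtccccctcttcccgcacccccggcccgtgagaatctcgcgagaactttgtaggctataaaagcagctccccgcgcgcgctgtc
NFE2L2, chr2:75704664-75704913, minus strand: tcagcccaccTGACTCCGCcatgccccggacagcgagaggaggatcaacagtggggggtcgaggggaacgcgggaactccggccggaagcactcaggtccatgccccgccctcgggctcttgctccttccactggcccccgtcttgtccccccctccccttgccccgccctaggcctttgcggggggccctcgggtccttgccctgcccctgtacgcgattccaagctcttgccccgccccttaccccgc
In SRXN1 the sequence TGAGTCA occurred at 102 and again at 45 bases before the start. The copy at 45 bases reads on as TGAGTCAGC, which differs from TGACNNNGC only by G in place of C and was not counted. In PRDX1, TGACTCA lay at 237 bases before the start, and at 131 bases TGAGTCA overlapped a TGACNNNGC match that reads TGACTCAGC on the other strand. In NFE2L2 the match TGACTCCGC lay at 240 bases before the start. The windows of NQO1 and SLC7A11 held neither motif. A match is a description of the letters and says nothing of binding.

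The values are log2 intensities after quantile normalization, which gives every array the same distribution. The median intensity of an array as deposited ran from 114 to 170.1. A level without signal was taken on each array from the 99th percentile of 1075 olfactory receptor genes, and it lay between 7.20 and 7.34. A difference is called when its limma p, adjusted by Benjamini-Hochberg over all 18132 genes, is below 0.05, and the smallest p that a 2-sided exact permutation test of 4 arrays against 4 can give is 0.0286. MAP3K1 itself did not fall with the MEKK1-/- label, and its log2 intensity on those arrays was higher by 0.53 in untreated cells (adjusted p = 0.465, limma) and by 0.33 with TCM (adjusted p = 0.605), so genotype is given as the labels have it. Fibroblast markers were above the olfactory level on every array for 10 of 11 genes, and fat cell markers on none for all 5 genes. The summed intensity of macrophage markers ran from 27600 to 84000 on MEKK1+/+ arrays and from 13900 to 67300 on arrays labelled MEKK1-/-. Epithelial markers summed to between 1040 and 1240 on MEKK1+/+ arrays. On the arrays labelled MEKK1-/- with the number 1 the sum was 11400 untreated and 10300 with TCM, against 1140 to 1720 on the other 6, so these 2 arrays stand apart. Endothelial markers were also highest on these 2 arrays, summing to 1730 untreated and 1640 with TCM, against 907 to 1200 on all others. Below they are named by their epithelial markers.

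The members covered a wide range of brightness, and 5 of the 9 were above the olfactory level on all 16 arrays. These were PRDX1, HMOX1, GCLM, SRXN1 and TXNRD1. PRDX1, an abundant thiol peroxidase, was the brightest at a mean of 13.21 over 16 arrays, brighter than 98.5% of the genes. HMOX1 followed at 10.10, GCLM at 9.55, SRXN1 at 9.24 and TXNRD1 at 8.10. SLC7A11 was at 7.82 and passed the level on 15 arrays. NQO1 at 7.14 passed it on 3 arrays and NFE2L2 at 7.13 on 5, and GCLC at 7.05 passed it on 0. Intensities of different probes do not measure relative transcript amounts, so the order describes the signal only.

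**Figure D1:**
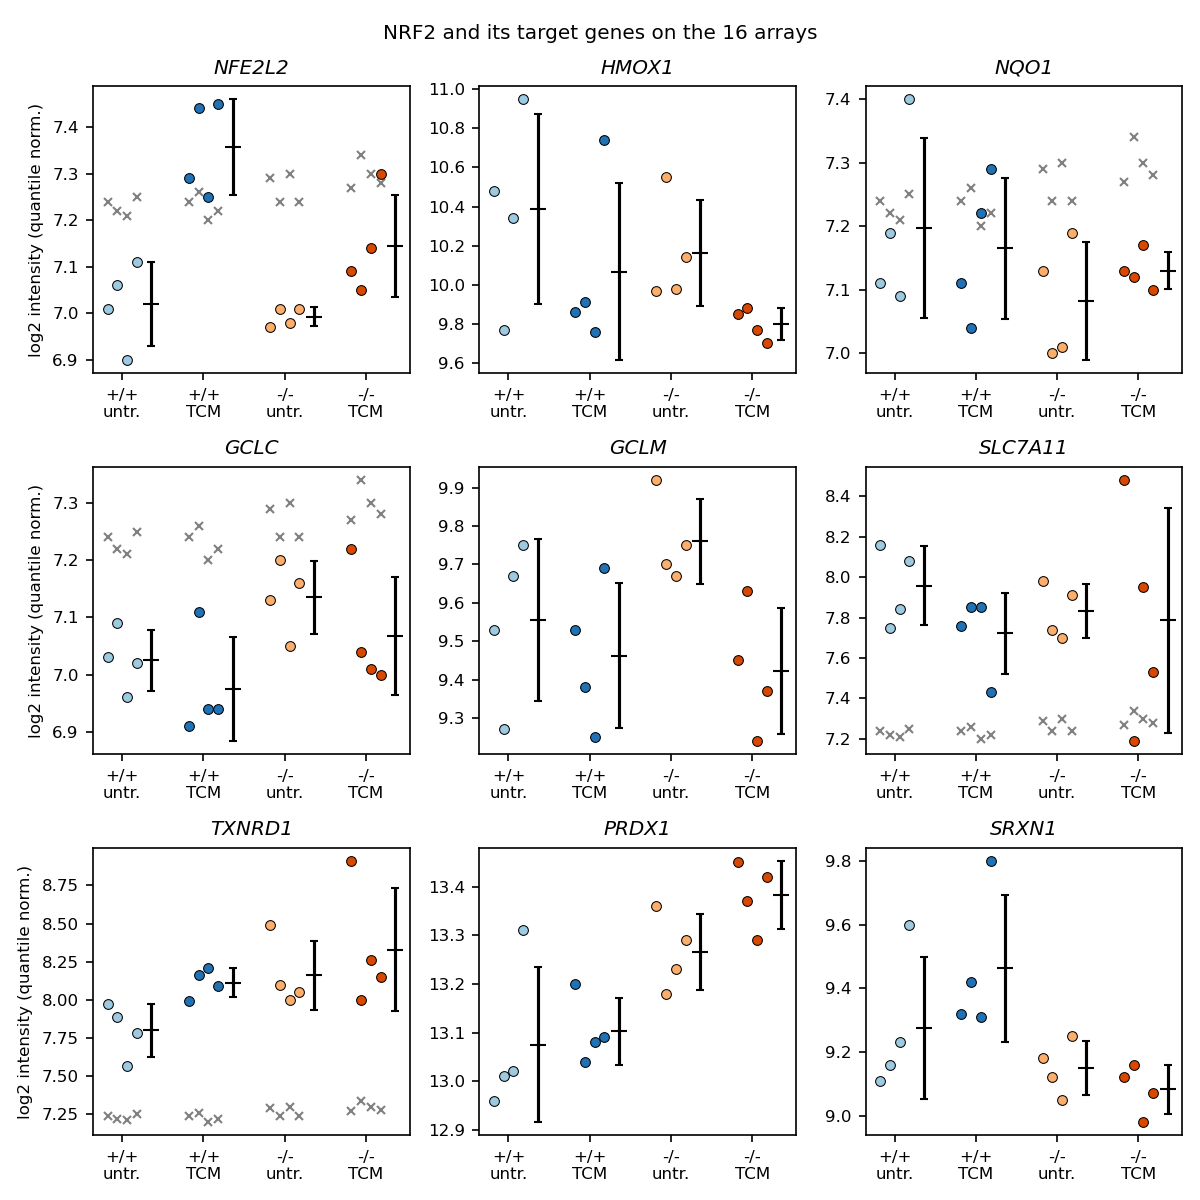
Log2 intensity of the 9 members (vertical axis, own range in each panel) on the 4 arrays of each group, numbered 1 to 4 from left to right, with the mean and SD beside them. Grey crosses mark the olfactory receptor level in the panels of genes at or near it. NFE2L2 lies below the crosses on all 4 untreated MEKK1+/+ arrays and GCLC on all 16.

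NFE2L2 was the only member called in any comparison, with a small rise in MEKK1+/+ cells given TCM. Replicates 1 to 4 of untreated MEKK1+/+ cells read 7.01, 7.06, 6.90 and 7.11 on the log2 scale, and those with TCM read 7.29, 7.44, 7.25 and 7.45. Every treated array was above every untreated one. The untreated values were below the olfactory level, which was 7.21 to 7.25 there, and the treated values were above it. The measured log2 difference was 0.34 (SE 0.07, 95% interval 0.20 to 0.48, adjusted p = 0.00809 by limma, exact permutation p = 0.0286). Because the untreated group held no value above the olfactory level, the size of the rise is uncertain. After quantile normalization the treated mean was 1.09-fold the mean olfactory level of the untreated arrays. That ratio of means has no interval and is not a lower limit for the rise. With 1 of 9 members called (11.1%), the background was 5.01% of all genes called, and 2.27% called higher. At an unadjusted p below 0.05 there was also 1 member, NFE2L2, against 16.8% of all genes. The call remained whichever array was left out, with adjusted p from 0.00635 to 0.0328. It was lost in the values as deposited, where the NFE2L2 difference was 0.07 (adjusted p = 0.67) while the median of all genes differed by -0.28.

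On the arrays labelled MEKK1-/-, NFE2L2 was 6.97, 7.01, 6.98 and 7.01 untreated and 7.09, 7.05, 7.14 and 7.30 with TCM. The groups did not overlap, but only 1 of these 8 values, the highest, reached its array's olfactory level. The difference was 0.15 (95% interval 0.01 to 0.29, adjusted p = 0.27, exact permutation p = 0.0286) and was not called. In this comparison 0 members were called by limma, against 4.69% of all genes (851, and 1438 with the replicate number as a block within genotype), and 2 members, GCLM and NFE2L2, had an unadjusted p below 0.05 against 16.2% of all genes. The response of NFE2L2 differed between genotypes by -0.19 (95% interval -0.39 to 0.01, adjusted p = 1), so a difference of response was not shown. The interaction was called for 0 members and 0% of genes by limma, with 0 members and 2.61% of genes at an unadjusted p below 0.05. The genes whose level followed NFE2L2 most closely over the 16 arrays, among 6918 genes above the olfactory level on all of them, were TUFM (Pearson r = 0.91), GPR19 (r = 0.91) and 1110012L19RIK (r = 0.90). These are descriptions over arrays that share the 4 groups, and NFE2L2 itself was mostly below the olfactory level.

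HMOX1, the heme oxygenase that is a classical NRF2 target, was lower on average with TCM in both genotypes, without a call. On untreated MEKK1+/+ arrays it was 10.48, 9.77, 10.34 and 10.95, and with TCM 9.86, 9.91, 9.76 and 10.74. The groups overlapped, the difference was -0.32 and its interval was wide, from -0.81 to 0.17 (adjusted p = 0.578, limma). It was -0.76 as deposited (adjusted p = 0.0804) and -0.47 with median scaling, and it lay between -0.54 and -0.13 with 1 array left out. On the arrays labelled MEKK1-/- the values were 9.97, 10.55, 9.98 and 10.14 untreated and 9.85, 9.88, 9.77 and 9.70 with TCM. There the groups did not overlap and all 4 treated arrays were lower, by 0.36 on average, but the difference was not called (95% interval -0.85 to 0.13, adjusted p = 0.52, exact permutation p = 0.0286). HMOX1 had the largest spread of the members, with an SD of 0.39 over 16 arrays. Macrophages express HMOX1, and among the untreated arrays labelled MEKK1-/- the brightest for HMOX1, replicate 2, also had the highest macrophage marker sum, 67300 against 13900 to 34900. In untreated MEKK1+/+ cells the dimmest, again replicate 2, had the lowest sum, 33100 against 57800 to 84000, but the brightest, replicate 4, had 57800, below the 84000 and 75100 of replicates 1 and 3. Among MEKK1+/+ arrays with TCM the brightest, replicate 4, had a sum of 58800 within a range of 27600 to 77500. The part of macrophage RNA in these HMOX1 values was not tested. In such mixed RNA, fewer cells of a type and less RNA per cell cannot be told apart.

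NQO1, a quinone reductase and another classical target, lay at or near the olfactory level in every group. Its mean was 7.20 ± 0.14 (SD, n = 4) on untreated MEKK1+/+ arrays and 7.17 ± 0.11 with TCM, and 7.08 ± 0.09 and 7.13 ± 0.03 on the arrays labelled MEKK1-/-. The changes with TCM were -0.03 (adjusted p = 0.914) in MEKK1+/+ and 0.05 (adjusted p = 0.863) in MEKK1-/-, and groups overlapped in all 4 comparisons.

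The genes of glutathione production were not called in either genotype. GCLM, the regulatory subunit of glutamate-cysteine ligase, was the one of them nearest to the threshold. On the arrays labelled MEKK1-/- it was 9.92, 9.70, 9.67 and 9.75 untreated and 9.45, 9.63, 9.24 and 9.37 with TCM. All 4 treated arrays were below all 4 untreated ones, with a difference of -0.33 (SE 0.11, 95% interval -0.58 to -0.09, adjusted p = 0.129 by limma, exact permutation p = 0.0286). The adjusted p was 0.0421 when arrays were only scaled to the same median and 0.058 with the replicate number as a block within genotype. As deposited the difference was -0.38 (adjusted p = 0.759, limma). Without the 2 arrays with epithelial markers it was -0.29 (adjusted p = 0.315, limma). In MEKK1+/+ cells GCLM was 9.53, 9.27, 9.67 and 9.75 untreated and 9.53, 9.38, 9.25 and 9.69 with TCM, which overlapped, and the difference was -0.10 (adjusted p = 0.787). The responses of the 2 genotypes differed by -0.24 (95% interval -0.58 to 0.11, adjusted p = 1).

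GCLC, the catalytic subunit of the same ligase, ran from 6.91 to 7.22 over all 16 arrays, below the olfactory level on each. SLC7A11, the cystine importer of system xc-, ran from 7.19 to 8.48, and both extremes were on arrays labelled MEKK1-/- with TCM. Its highest array was replicate 1 of that group, 1 of the 2 arrays with epithelial markers. The changes of SLC7A11 with TCM were -0.24 in MEKK1+/+ (95% interval -0.67 to 0.20, adjusted p = 0.669) and -0.04 in MEKK1-/- (95% interval -0.48 to 0.39, adjusted p = 0.964), where the change was -0.23 without the 2 arrays with epithelial markers.

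The thioredoxin branch held the other member that separated with TCM in MEKK1+/+ cells. TXNRD1, the cytosolic thioredoxin reductase, was 7.97, 7.89, 7.57 and 7.78 on untreated MEKK1+/+ arrays and 7.99, 8.16, 8.21 and 8.09 with TCM. The groups did not overlap, although the lowest treated and the highest untreated array lay close together. The difference was 0.31 (95% interval -0.04 to 0.66, adjusted p = 0.376, exact permutation p = 0.0286) and was not called. As deposited it was -0.02. On the arrays labelled MEKK1-/- TXNRD1 was 8.49, 8.10, 8.00 and 8.05 untreated and 8.91, 8.00, 8.26 and 8.15 with TCM. Replicate 1 was the highest in both of these groups, and these are the 2 arrays with epithelial markers. The change was 0.17 (adjusted p = 0.719), and 0.09 without those 2 arrays.

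PRDX1 changed by 0.03 with TCM in MEKK1+/+ (adjusted p = 0.924) and by 0.12 in MEKK1-/- (adjusted p = 0.491). SRXN1, the sulfiredoxin that restores overoxidized peroxiredoxins, changed by 0.18 (adjusted p = 0.478) and -0.07 (adjusted p = 0.874). Counted over the members, the groups did not overlap for 2 of 9 with TCM in MEKK1+/+ (NFE2L2 and TXNRD1), where this held for 9.7% of all genes. In MEKK1-/- they did not overlap for 3 of 9 (HMOX1, GCLM and NFE2L2), against 10.4% of all genes. The median change of the 9 members was -0.03 in MEKK1+/+ and -0.04 in MEKK1-/-, beside 0.00 for all genes in both.

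**Figure D2:**
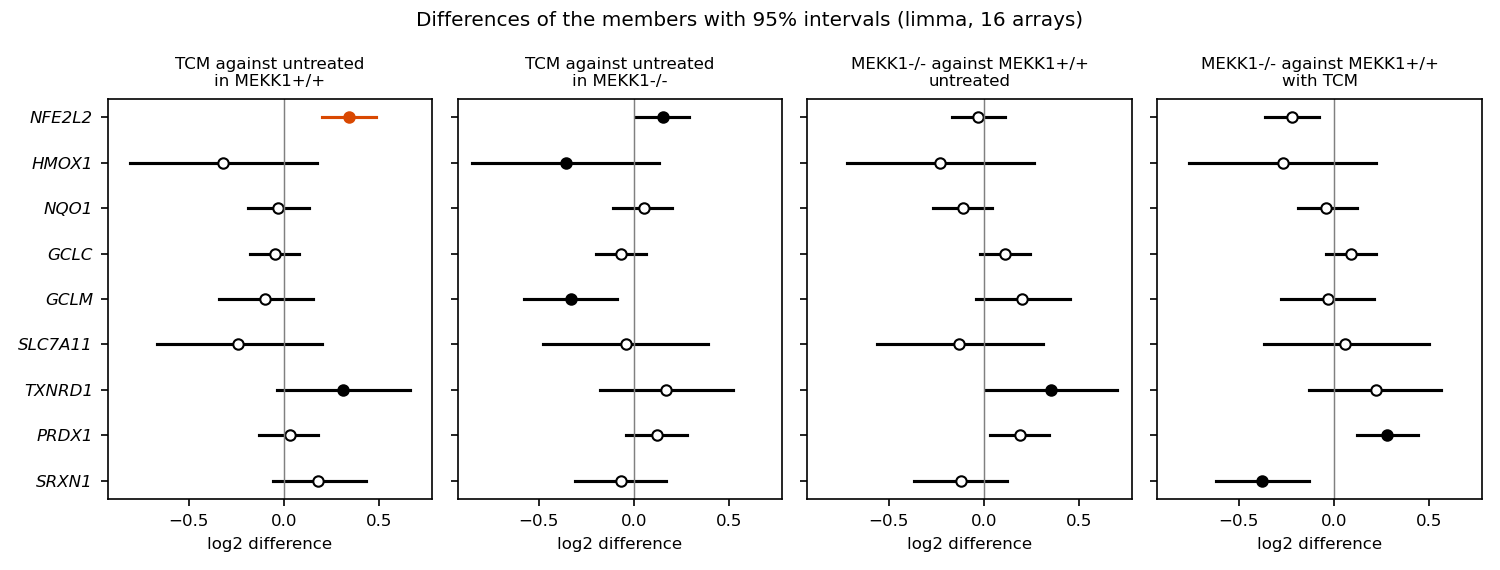
Log2 difference of each member (horizontal axis, points) with its 95% interval from limma (lines) in the 4 comparisons of 2 groups. Filled points mark groups of arrays that do not overlap and orange marks the called difference. NFE2L2 with TCM in MEKK1+/+ is the only orange point, at 0.34, and every interval lies between -0.85 and 0.70.

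Between genotypes, 0 members were called in untreated cells, where 0% of all genes were called, while 2 members and 9.27% of genes had an unadjusted p below 0.05 by limma. With TCM 0 members were called beside 0.00552% of all genes, which is 1 gene, and 3 members and 8.09% of genes had an unadjusted p below 0.05. These 3 members were SRXN1 and PRDX1, both of peroxide removal, and NFE2L2. NFE2L2 was lower by 0.22 on the arrays labelled MEKK1-/- with overlapping groups (95% interval -0.36 to -0.08, adjusted p = 0.501), and as deposited its difference was 0.09.

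SRXN1 with TCM was 9.32, 9.42, 9.31 and 9.80 on MEKK1+/+ arrays and 9.12, 9.16, 8.98 and 9.07 on the arrays labelled MEKK1-/-. All 4 of the latter were lower, with a difference of -0.38 (SE 0.11, 95% interval -0.62 to -0.13, adjusted p = 0.501 by limma, exact permutation p = 0.0286). The estimate stayed below 0 in every alternative run, from -0.55 to -0.24, and without the 2 arrays with epithelial markers it was -0.39. In untreated cells SRXN1 was 9.11, 9.16, 9.23 and 9.60 in MEKK1+/+ and 9.18, 9.12, 9.05 and 9.25 in MEKK1-/-, which overlapped (difference -0.12, adjusted p = 0.753). This untreated difference was -0.35 as deposited and -0.37 with median scaling (adjusted p = 0.107). The difference between these 2 genotype effects, which is the interaction, was -0.25 (95% interval -0.60 to 0.09, adjusted p = 1).

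PRDX1 with TCM was 13.20, 13.04, 13.08 and 13.09 on MEKK1+/+ arrays and 13.45, 13.37, 13.29 and 13.42 on the arrays labelled MEKK1-/-. The groups did not overlap, and the difference was 0.28 (SE 0.07, 95% interval 0.12 to 0.44, adjusted p = 0.427, exact permutation p = 0.0286). Its sign depends on the scaling, since it was -0.0023 with arrays scaled to the same median. In untreated cells PRDX1 was 12.96, 13.01, 13.02 and 13.31 in MEKK1+/+ and 13.36, 13.18, 13.23 and 13.29 in MEKK1-/-, a difference of 0.19 (adjusted p = 0.499). This one too turned, to -0.07 as deposited and -0.09 with median scaling.

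TXNRD1 in untreated cells was the other member whose genotypes did not overlap, higher by 0.35 on the arrays labelled MEKK1-/- (95% interval 0.01 to 0.70, adjusted p = 0.536, exact permutation p = 0.0286). The difference was 0.25 without the 2 arrays with epithelial markers, and with TCM it went from 0.22 to 0.02. The share of epithelial or endothelial RNA in these values was not tested. Non-overlap held for 1 of 9 members in untreated cells and 2 of 9 with TCM, beside 4.61% and 4.17% of all genes. For HMOX1 the genotype differences were -0.23 (95% interval -0.72 to 0.26) untreated and -0.27 (95% interval -0.76 to 0.22) with TCM, and in both the groups overlapped. The untreated HMOX1 difference was -0.50 as deposited and -0.52 with median scaling. Macrophage markers moved the same way, with 18 of 20 lower on the arrays labelled MEKK1-/- untreated and 17 of 20 with TCM, a median of -0.78 in both, and 10 and 8 of them lower at an unadjusted p below 0.05. Their part in the HMOX1 differences was not tested.

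**Figure D3:**
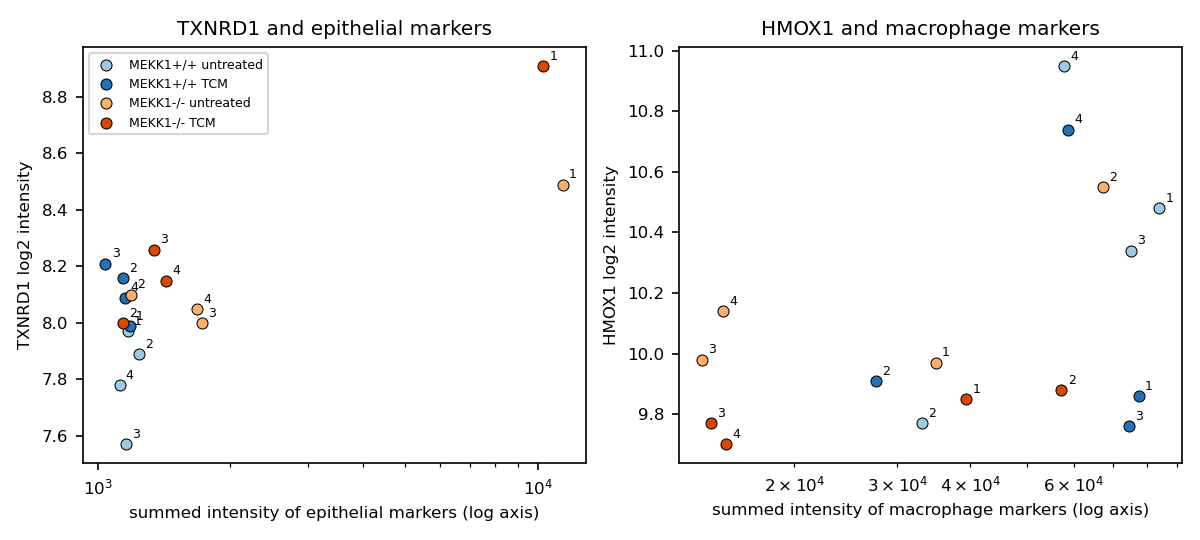
TXNRD1 (left) and HMOX1 (right) log2 intensity against the summed intensity of epithelial and macrophage markers (log axes) on the 16 arrays, labelled by replicate number. The 2 arrays with epithelial sums of 11400 and 10300 have the highest TXNRD1 values, 8.49 and 8.91.

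**Figure D4:**
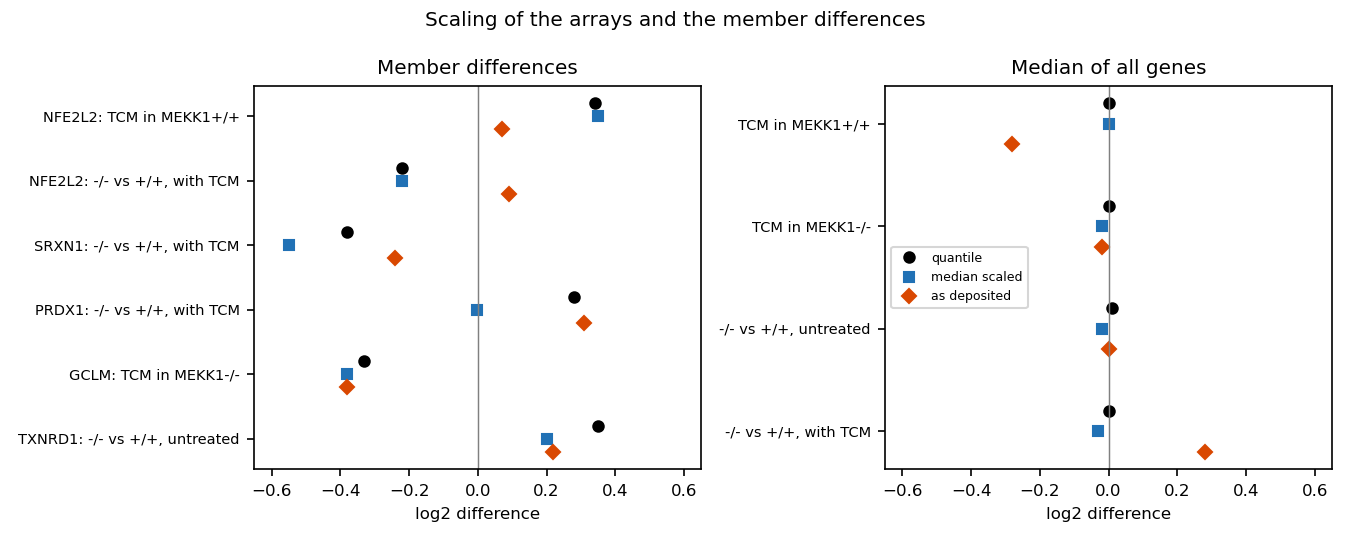
Left, log2 differences of 6 member comparisons after quantile normalization, median scaling and as deposited (horizontal axis), and right, the median difference of all genes in the same scalings. NFE2L2 with TCM in MEKK1+/+ goes from 0.34 to 0.07 as deposited, where the median gene is at -0.28.

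Within groups, some pairs of members varied together and others did not. After the group means were removed, 13 of the 36 pairs of members had a correlation below 0, and the correlations ran from -0.18 to 0.80 with a median of 0.16. The highest was between TXNRD1 and SLC7A11, and it was 0.55 without the 2 arrays with epithelial markers. In MEKK1+/+ cells the arrays numbered 4 had the highest HMOX1, NQO1, GCLM and SRXN1 values of their group, both untreated and with TCM. As deposited, the same arrays had the lowest median intensity of their group. It was 114 untreated against 152 to 167, and 114 with TCM against 121 to 122. Whether the scaling of these dim arrays plays a part was not tested. Over the 16 arrays the highest correlations among members were between NQO1 and SRXN1 (Pearson r = 0.64, and 0.72 after the group means were removed) and between HMOX1 and SRXN1 (r = 0.60, and 0.76 after removal). These are descriptions over arrays that share groups and mice.

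Around the members, the regulators and the wider redox system were read from lists of 102 other genes. Of these, 6 were called with TCM in MEKK1+/+ and 11 in MEKK1-/-, beside the 5.01% and 4.69% of all genes given above. At an unadjusted p below 0.05 there were 22 (21.6%) and 26 (25.5%), beside 16.8% and 16.2% of all genes. KEAP1 changed by -0.04 with TCM in MEKK1+/+ and by -0.05 in MEKK1-/-, neither called. Of 13 NRF2 partners and repressors, 1 was called higher in MEKK1+/+ and 3 in MEKK1-/-, and 0 were called lower. The estimate was below 0 for 5 of the 13 in MEKK1+/+ and for 4 in MEKK1-/-, with median changes of 0.09 and 0.04. BTRC, a ubiquitin ligase subunit that also targets NRF2, rose in both, by 0.44 and 0.40. NFE2L1, a relative of NRF2, rose by 0.42 and SQSTM1, the autophagy adaptor that can bind KEAP1, by 0.47 in MEKK1-/-. In MEKK1+/+ the NFE2L1 difference was 0.32 and was not called (adjusted p = 0.0514). The SQSTM1 call was at the threshold (adjusted p = 0.0487) and held in 8 of 28 alternatives. As deposited, BTRC differed by 0.08 in MEKK1+/+ (adjusted p = 0.738), and in MEKK1-/- the differences of BTRC, NFE2L1 and SQSTM1 were 0.37, 0.34 and 0.40 (adjusted p = 1 for each). With median scaling the adjusted p was 0.13 and 0.176 for BTRC in MEKK1+/+ and MEKK1-/-, and 0.231 for NFE2L1 and 0.31 for SQSTM1 in MEKK1-/-.

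BLVRB and TXNIP rose with TCM in both genotypes. BLVRB, biliverdin reductase B, was 11.61, 11.23, 11.48 and 11.87 on untreated MEKK1+/+ arrays and 12.65, 12.68, 12.57 and 12.74 with TCM. Its rise was 1.11 in MEKK1+/+ (95% interval 0.81 to 1.41, adjusted p = 0.000438) and 1.02 in MEKK1-/- (95% interval 0.72 to 1.31, adjusted p = 0.000858). TXNIP, the inhibitor of thioredoxin, rose by 1.38 (95% interval 0.89 to 1.87, adjusted p = 0.00318) and 1.35 (95% interval 0.85 to 1.84, adjusted p = 0.00361). These 4 calls of BLVRB and TXNIP held in every alternative run. BLVRB was the only gene called among 9 of heme and iron handling in either genotype, whose median changes were -0.05 and 0.06.

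In the thioredoxin and peroxiredoxin list of 13 genes, TXNIP rose and TXNRD2, the mitochondrial thioredoxin reductase, fell in both genotypes, by 0.39 and by 0.43. As deposited, the TXNRD2 difference in MEKK1-/- was -0.39 (adjusted p = 0.886). The median changes of this list were 0.02 and 0.06. PRDX5, another peroxiredoxin, rose by 0.54 in MEKK1-/-, a call that held in 13 of 28 alternatives. Without the 2 arrays with epithelial markers the PRDX5 difference was 0.48 (adjusted p = 0.143). A list of 11 other glutathione genes held the synthetase GSS, the glutathione peroxidases, GLRX, CHAC1, GGT1 and SLC3A2. Of these 11 and of 19 glutathione S-transferases, 0 were called by limma with TCM in either genotype. Median changes in MEKK1+/+ and MEKK1-/- were 0.02 and 0.00 for the 11 genes and 0.14 and 0.19 for the transferases. At an unadjusted p below 0.05, 5 of the 19 transferases were higher in each genotype and 1 was lower in MEKK1+/+. Of the 11 other glutathione genes, 0 differed in MEKK1+/+ and 3 in MEKK1-/-. Of all genes, 16.8% and 16.2% passed this cut in MEKK1+/+ and MEKK1-/-. PGD, a source of NADPH, was the only one called of 5 enzymes of NADPH production or the pentose phosphate pathway. It fell by 0.34 in MEKK1+/+, where the median of these enzymes was -0.18, and the call held in 18 of 27 alternatives. Among 16 enzymes and exporters for quinones, carbonyls and xenobiotics, ABCC5, an exporter of organic anions, fell by 0.46 and by 0.42, and the medians were 0.05 and 0.07. As deposited, ABCC5 differed by -0.40 in MEKK1-/- (adjusted p = 0.777). CBR3, a carbonyl reductase, rose by 0.52 in MEKK1-/-. The CBR3 difference was 0.56 (adjusted p = 0.0564) without the 2 arrays with epithelial markers, 0.43 (adjusted p = 0.0822) with median scaling and 0.44 (adjusted p = 0.679) as deposited.

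SOD2, the mitochondrial superoxide dismutase and a well known NF-kB target, rose by 1.44 in MEKK1-/- (95% interval 0.81 to 2.07, adjusted p = 0.0109). There it was 12.41, 13.64, 12.51 and 12.43 untreated and 14.21, 14.37, 14.07 and 14.11 with TCM. It was the only one called of 4 superoxide dismutases and catalase, whose median changes were 0.37 and 0.45. In MEKK1+/+ the change of 0.62 was not called (adjusted p = 0.303), and the difference of response of 0.82 was not called either (95% interval -0.07 to 1.71, adjusted p = 1). Without the 2 arrays with epithelial markers the rise of SOD2 in MEKK1-/- was 1.32 (adjusted p = 0.054). NFKBIA, the NF-kB inhibitor that NF-kB itself induces, rose by 1.89 in MEKK1-/- (adjusted p = 0.0442), a call that held in 12 of 28 alternatives. Without those 2 arrays the NFKBIA difference was 1.98 (adjusted p = 0.0968), and in MEKK1+/+ it was 1.08 (adjusted p = 0.293). NFKBIA was the only gene called in either genotype among 6 AP-1 and NF-kB feedback genes. The median changes of these 6 were 0.35 in MEKK1+/+ and 0.43 in MEKK1-/-, where they ran from -0.43 to 1.89. ATF4 is a stress factor that also controls SLC7A11. Of a list of 8 genes, ATF4 and targets of it, 0 were called by limma with TCM. Of these 8, 0 had an unadjusted p below 0.05, and the medians were -0.21 and -0.07. Of the 102 list genes 0 were called by limma between genotypes or in the interaction. At an unadjusted p below 0.05 there were 11 in untreated cells, 8 with TCM and 0 in the interaction. The shares of all genes at that cut were 9.27%, 8.09% and 2.61%. Of the 17 calls of list genes with TCM, 4 held in every alternative. SQSTM1, PRDX5 and NFKBIA in MEKK1-/- lost the call without 13, 10 and 11 of the 16 arrays, each left out alone, with adjusted p up to 0.152.

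**Figure D5:**
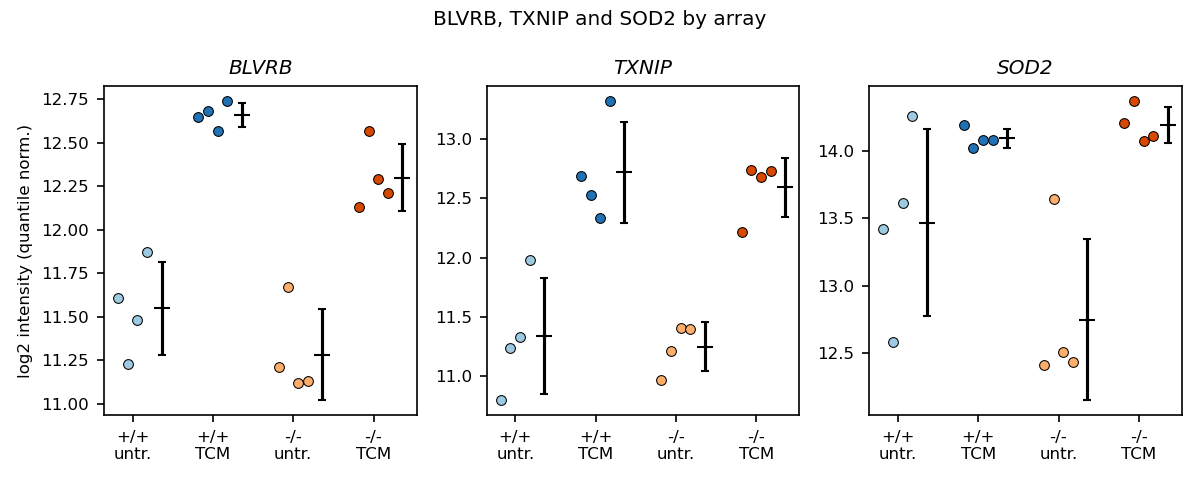
Log2 intensity of BLVRB, TXNIP and SOD2 (vertical axis) on the 4 arrays of each group with mean and SD. For BLVRB and TXNIP every array with TCM lies above every untreated array of its genotype.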

How the data were processed

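The authors deposited a linear intensity per gene symbol and array, which the labels call normalized. The study's methods name z-scores and z-tests. The deposited values are not z-scores, and how they were normalized, their background treatment and the combination of probes are not given in the sources used here, which can change small differences. Z-scores and a z-test were run as alternatives. Groups and replicate numbers came from the labels. Values were converted to log2, quantile normalized and fitted over 4 groups and 5 comparisons with limma 3.58.1 in R 4.3.3 (lmFit, eBayes, 12 residual degrees of freedom, Benjamini-Hochberg over 18132 genes, threshold 0.05). The design took this scaling because array medians were known to differ. Exact permutation tests were 2-sided, and 4 arrays a group limit the precision. The steps were tested on simulated data. Members and lists were chosen with earlier results of these data known. Named genes are the members, MAP3K1, list genes called (at most 3 per list and comparison), the 3 genes most like a called member, and markers that move with a result. Whether equal replicate numbers mark paired cultures was checked from the correlation of deviations from group means. Across treatments in MEKK1-/- it was at least 0.219 for every number, but numbers 3 and 4 correlated more with another number. Pairing there was therefore not settled by this check. In MEKK1+/+ it was -0.038 for number 1, where pairing was not shown. Numbers 2, 3 and 4 of MEKK1+/+ (0.485, 0.120 and 0.576) were each their own best match. In each genotype the numbers had the same order of macrophage marker sums untreated and with TCM. The main fit and the permutation tests were unpaired. Leaving out the 2 arrays with epithelial markers was added after the data were seen. Promoters are from RefSeq, GRCm38.p6.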

Additional observations from a re-analysis of the deposited data

Results flagged for a closer look

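In 3 of the 36 groups of member values, 1 array stood apart from the other 3 by Dixon's ratio, the gap to the nearest array as a share of the range. HMOX1 was 10.74 on replicate 4 of MEKK1+/+ with TCM, where the others were 9.76 to 9.91 (share 0.843). GCLC was 7.11 on replicate 2 of MEKK1+/+ with TCM, against 6.91 to 6.94 (share 0.845), all below the olfactory level. PRDX1 was 13.31 on replicate 4 of untreated MEKK1+/+, against 12.96 to 13.02 (share 0.839). The flagged HMOX1 and PRDX1 values were on the arrays with the lowest deposited median intensity of their group, 114 in both. Chance alone flags about 1 group in 20 at this level.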

How the results depend on the processing

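The number of members called with TCM in MEKK1+/+, 1, was 0 as deposited. In MEKK1-/- the number, 0, was 1 with median scaling (GCLM) and 2 in the z-test on z-scores (GCLM and NFE2L2). The z-test also gave 1 in untreated cells between genotypes (GCLC) and 1 with TCM (SRXN1). All other alternatives, leaving out any 1 array included, kept these numbers (1 in MEKK1+/+, 0 elsewhere).

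With the replicate block, within genotype too, the number of members called was 1 in MEKK1+/+ and 0 in MEKK1-/-, and 0 between genotypes with the numbers as a block. All genes called rose from 909 to 1481 in MEKK1+/+ and from 851 to 1438 in MEKK1-/- with the block within genotype. A block over all arrays ended the MEKK1-/- calls of SQSTM1, PRDX5 and NFKBIA (adjusted p 0.057, 0.0684 and 0.0702), NFKBIA and NFE2L1 passed in MEKK1+/+ within genotype (0.044 and 0.0359), and no other call of a named gene changed.

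Signs that turned, none of a call: as deposited with TCM in MEKK1+/+, TXNRD1 -0.02, SRXN1 -0.22, PRDX1 -0.33, NFE2L1 -0.04, SQSTM1 -0.22 and CBR3 -0.15. As deposited elsewhere, SLC7A11 in MEKK1-/- was 0.01, between genotypes untreated GCLM was -0.04, PRDX1 -0.07 and NFE2L2 0.01, and with TCM NQO1 was 0.27, GCLM 0.09 and NFE2L2 0.09. The interactions of GCLM, SRXN1 and NFE2L2 were 0.13, 0.11 and 0.08 as deposited. Median scaling gave PRDX1 -0.05 with TCM in MEKK1+/+, SLC7A11 0.01 in MEKK1-/-, GCLM -0.06 and PRDX1 -0.09 between untreated genotypes, and PRDX1 -0.0023 with TCM. Both uses of z-scores gave SLC7A11 0.01 in MEKK1-/-. Array weights gave NQO1 0.01 with TCM in MEKK1+/+ and NFE2L2 0.01 between untreated genotypes. Without both MEKK1-/- arrays numbered 1, SLC7A11 between genotypes with TCM was -0.17.

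With any 1 array left out, the ranges that crossed 0 were -0.07 to 0.04 for NQO1 and -0.01 to 0.11 for PRDX1 with TCM in MEKK1+/+, -0.02 to 0.28 for TXNRD1 and -0.28 to 0.16 for SLC7A11 in MEKK1-/-, -0.07 to 0.0021 for NFE2L2 between untreated genotypes, and with TCM -0.08 to 0.01 for NQO1, -0.10 to 0.04 for GCLM and -0.17 to 0.27 for SLC7A11.

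Calls of list genes in MEKK1+/+ ended without 1 array for BTRC (untreated replicate 3 or TCM replicate 4), TXNRD2 (untreated replicates 2 and 3, TCM replicates 3 and 4), PGD (the same 4 and untreated replicate 4) and ABCC5 (untreated replicate 3), with adjusted p up to 0.0779. In MEKK1-/- they ended for NFE2L1 (TCM replicate 3), CBR3 (untreated replicates 3 and 4, TCM replicates 2 and 4), BTRC (untreated replicates 1 and 4, TCM replicates 2, 3 and 4) and ABCC5 (untreated replicates 2, 3 and 4, TCM replicates 1 and 3), up to 0.0868.

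All genes called with TCM in MEKK1+/+ (909) were 1916 in the z-test, 591 with only the 2 groups compared, and 541, 506 and 552 without untreated replicate 2, untreated replicate 3 or TCM replicate 4. In MEKK1-/- (851) they were 45 as deposited, 463 with median scaling, 2047 in the z-test, 1355 with array weights, 477 and 478 without untreated replicate 3 or 4, and 506, 524 and 495 without TCM replicate 2, 3 or 4. Between untreated genotypes (0) the z-test gave 817, and array weights, leaving out MEKK1-/- replicate 2 and leaving out both MEKK1-/- arrays numbered 1 gave 1 each. With TCM (1) the z-test gave 460, median scaling 7 and the other alternatives 0 to 2. The interaction (0) gave 20 in the z-test and 1 without MEKK1+/+ TCM replicate 1. As deposited, 4.03% of calls were higher in MEKK1+/+ against 45.2%, and 75.6% in MEKK1-/- against 46.4%; median scaling gave 33% in MEKK1+/+. As deposited, the median gene was at -0.28 with TCM in MEKK1+/+, at 0.28 between genotypes with TCM and at 0.00 between untreated genotypes.

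The brightest row per symbol gave no value, since each has 1 row. The causes were not tested. Signal over background limits GCLC, NQO1 and NFE2L2.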
